A study of Caenorhabditis elegans with 2 samples.

Results

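The strong intronic regions away from promoters are stretches of the worm genome listed with signal in ChIP-seq of NHR-28, a nuclear hormone receptor. They lie inside protein-coding genes, almost all in introns. They were chosen by measured values and by position. A region had to have a signal value of 20 or more in the authors' list for both replicates together. Its summit, the position of highest signal, had to lie more than 1000 bp from any protein-coding 5' end, inside a protein-coding gene but in no exon of any gene, with no tRNA or snoRNA gene within 500 bp. By the authors' name for it, that list holds peaks and background, so a region in it need not be a peak. Of its 30000 regions, 29976 lay on nuclear chromosomes and 7961 of these had a signal of 20 or more. The rule kept 1419. The study profiled mixed-stage embryos of C. elegans strain OP317, pooled males and females, as 2 biological replicates that form 1 group. OP317 carries unc-119(ed3) III and the integrated transgene wgIs317, which supplies an eGFP-tagged NHR-28. Both replicates share the allele and the transgene, so no untagged strain or other stage was compared. Whole embryos were used, so signal from different cell types is summed.

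Nuclear hormone receptors are transcription factors with a zinc finger DNA-binding domain, and many also bind small lipophilic ligands. The family is greatly expanded in C. elegans, and most of its members have no known ligand. Many receptors of the family recognise DNA that holds the hexamer AGGTCA. Introns of worm genes, above all long first introns, are known to hold enhancers and internal promoters, while most short introns are near a minimal length. ChIP-seq of tagged factors in worms also gives signal at open chromatin that many factors share, so a region is not by itself a site that the receptor contacts through a sequence of its own.

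The regions with the highest signal showed several kinds of DNA. The following 8 windows reach 100 bp to each side of the summit, on the + strand of ce11, and come from the 13 members that were also in the authors' list passing the irreproducible discovery rate (IDR) step. The first pair is shown because both windows, on chromosome X, hold the same run of 13 bases on opposite strands, in capitals. That run occurs 8 times in the nuclear genome.

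mom-1, chrX:6296478-6296678: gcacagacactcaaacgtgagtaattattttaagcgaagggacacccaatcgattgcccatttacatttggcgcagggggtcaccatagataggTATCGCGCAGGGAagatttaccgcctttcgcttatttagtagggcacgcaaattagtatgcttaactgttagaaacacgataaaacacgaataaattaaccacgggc

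Y41G9A.17, chrX:2996967-2997167: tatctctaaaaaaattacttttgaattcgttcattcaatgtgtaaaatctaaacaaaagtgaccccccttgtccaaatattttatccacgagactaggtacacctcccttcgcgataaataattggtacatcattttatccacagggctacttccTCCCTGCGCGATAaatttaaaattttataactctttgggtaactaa

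The srt-52 window is shown because it holds letters of the internal tRNA promoter, an A box (TGGNNNAGT) followed by a B box (GTTCNANNC), in capitals, although no tRNA gene is annotated there. The next 3 windows are shown for the GA repeat GAGAGA or its complement TCTCTC, in capitals.

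srt-52, chrV:53393-53593: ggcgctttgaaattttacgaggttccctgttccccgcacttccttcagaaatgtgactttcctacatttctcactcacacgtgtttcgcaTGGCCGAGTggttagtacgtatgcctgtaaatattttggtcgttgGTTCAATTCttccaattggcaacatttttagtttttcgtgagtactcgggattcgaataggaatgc

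nhr-46, chrIV:5753416-5753616: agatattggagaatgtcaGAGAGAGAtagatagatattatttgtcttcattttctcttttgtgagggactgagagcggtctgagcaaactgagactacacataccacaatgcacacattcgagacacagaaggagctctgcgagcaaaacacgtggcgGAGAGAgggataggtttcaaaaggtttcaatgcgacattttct

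nhr-19, chrII:9603467-9603667: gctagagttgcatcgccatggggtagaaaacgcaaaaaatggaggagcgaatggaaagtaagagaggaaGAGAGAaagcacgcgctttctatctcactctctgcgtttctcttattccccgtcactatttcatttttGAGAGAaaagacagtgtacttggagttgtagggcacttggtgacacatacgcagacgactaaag

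zfp-1, chrIII:8795812-8796012: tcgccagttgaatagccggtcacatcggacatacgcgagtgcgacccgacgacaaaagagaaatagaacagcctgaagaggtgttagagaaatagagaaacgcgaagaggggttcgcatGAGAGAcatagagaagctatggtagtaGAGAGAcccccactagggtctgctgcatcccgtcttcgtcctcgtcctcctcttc

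The last pair, both on chromosome III, share a run of 14 bases, in capitals, that occurs 3 times in the whole nuclear genome. All 3 copies are printed here, 2 in the pqn-41 window and 1 in the Y111B2A.12 window. Between the copies in pqn-41 stand a TG repeat and its complementary CA repeat, which form 19 paired bases around a gap of 11.

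pqn-41, chrIII:1925230-1925430: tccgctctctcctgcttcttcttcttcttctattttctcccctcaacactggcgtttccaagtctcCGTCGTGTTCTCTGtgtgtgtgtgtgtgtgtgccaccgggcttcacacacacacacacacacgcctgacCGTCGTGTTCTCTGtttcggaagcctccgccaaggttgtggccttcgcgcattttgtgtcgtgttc

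Y111B2A.12, chrIII:12612512-12612712: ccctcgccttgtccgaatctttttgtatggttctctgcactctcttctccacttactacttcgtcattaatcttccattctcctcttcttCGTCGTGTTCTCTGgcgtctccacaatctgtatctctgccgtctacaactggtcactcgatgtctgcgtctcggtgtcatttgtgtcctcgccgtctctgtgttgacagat

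Signal values are the authors' measure of a region's strength, and their scale depends on the list, so levels were read within 1 list at a time and the replicates' lists are set side by side by rank. Read totals are unknown. The pooled signal of the 1419 members ran from 20.002 to 102.9 with a median of 22.9. Most members were therefore close to the threshold: 1276 had a signal of 20 to 30, 125 of 30 to 50 and 18 of 50 or more. Just inside the threshold were regions in pqn-82 (20.0076), the sex-determination gene tra-1 (20.0050) and the cilium gene osm-5 (20.0021). Just outside were regions in C02B10.3 (19.9972), ZK669.2 (19.9957) and F32H2.8 (19.9939). The position rule was passed by 21.2% of the regions under 20, 19.3% of those from 20 to 30, 11.6% of those from 30 to 50 and 6.52% of those of 50 or more. Intronic places away from promoters thus made up a smaller share of the list as signal rose.

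The strongest member lay in mom-1, which encodes Porcupine, the acyltransferase that attaches a lipid to Wnt proteins. Its pooled signal was 102.9, and it had 74.95 in replicate 1 and 31.1 in replicate 2. It sat at chrX:6296416-6296739 in the last of 7 introns, 85 bp from the nearest exon and 3364 bp from the nearest protein-coding 5' end. It ranked 30 in the replicate 1 list and 192 in the replicate 2 list, and no other member reached 60 in either list.

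Of the 13 hosts in the IDR list, 3 encode nuclear hormone receptors. By gene symbol, so do 21 of the 1063 hosts of all members (1.98%). Among the 150 hosts of members in both replicates 4 do (2.67%). The nhr-46 member at chrIV:5753354-5753677 had a pooled signal of 72.6, with 44.3 and 23.9 in replicates 1 and 2, near the middle of a first intron of 7906 bp. The nhr-3 member at chrX:14560223-14560546 had 64.7, with 26.6 and 36.1, in intron 5 of 6. The nhr-19 member at chrII:9603405-9603728, in a first intron of 4213 bp, had 66.0 in the pooled list and 47.6 in replicate 1. No replicate 2 region covered the nhr-19 summit, and the nearest replicate 2 summit was 2107 bp away. It was the 1 member of the IDR list found in a single replicate's list. Another receptor gene, nhr-27, had a member of signal 50.1 with 25.05 and 20.99 in the replicates, in an intron of 100912 bp that holds another protein-coding gene.

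The chemoreceptor gene srt-52 hosted the next strongest member after mom-1, at chrV:53331-53654. Its pooled signal was 87.7, and 41.4 and 45.6 in replicates 1 and 2, so both lists placed it high, at ranks 120 and 67. Y67D8A.2, annotated as a regulatory subunit of phosphorylase kinase, had 81.3 in the pooled list and 39.0 and 41.4 in the replicates. The lipase-related gene lips-10 had 61.9, with 34.8 and 26.5. Y67D8A.2 ranked 137 and 95, and lips-10 193 and 290, so all 3 were among the strongest regions of both lists.

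The zfp-1 member at chrIII:8795750-8796073, in the gene of a PHD finger protein related to human AF10, had a pooled signal of 61.6, with 43.6 in replicate 1 and 19.7 in replicate 2. The gei-4 member had 55.8, with 24.7 and 27.6. The dmd-6 member, in a gene of the DM domain family that includes regulators of sexual development, had 48.4, with 27.3 and 25.5. The larp-1 member, in a La-related RNA-binding protein gene, had 48.1, with 28.2 and 23.9. Y48C3A.5, which RefSeq calls a serine-rich adhesin, had 53.2, with 26.9 and 32.4, and wsp-1, related to the human actin regulator WASP, had 49.8, with 30.5 and 19.1. Of these 6 the zfp-1 member was in the IDR list, and its ranks, 101 in replicate 1 and 816 in replicate 2, were given by lists of different lengths.

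The remaining IDR hosts had other or unknown roles. The pqn-41 member, in a glutamine-rich protein gene known for the death of the male linker cell, had 66.9, with 34.01 and 31.05. The pad-1 member, in a gene needed for embryonic patterning, had 61.9, with 31.1 and 31.9, and lay 72 bp from an exon in intron 15 of 22. Its window was unlike the printed ones, with a tandem repeat of 167 bp and period 23. The window had 5 matches in the genome, its own place included, and shifted matches within the repeat were not removed. Y111B2A.12, a WD repeat gene, had 57.2, with 37.1 and 22.1. The uncharacterised genes Y41G9A.17 and C54E4.4 had 77.4 and 73.6 in the pooled list. Replicate values were 35.4 and 39.7 for Y41G9A.17 and 43.04 and 28.5 for C54E4.4. Both lists thus held all 5 of these members, at ranks up to 506 in replicate 2.

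**Figure D1:**
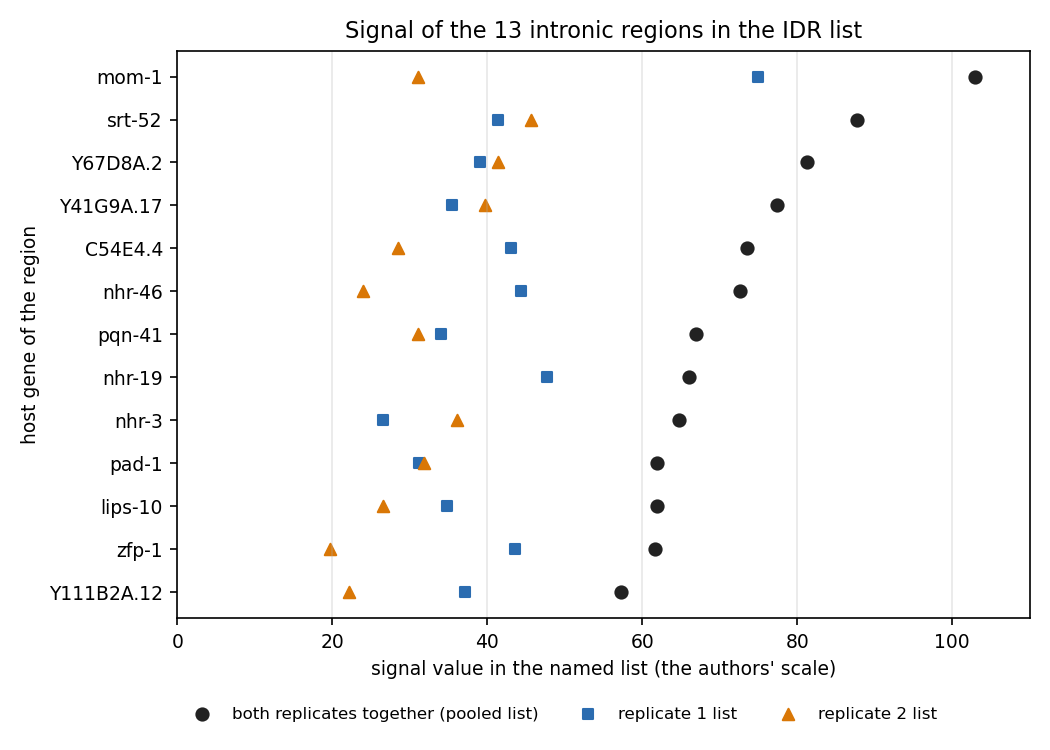
Signal value (horizontal axis, the authors' scale, which differs between lists) of the 13 intronic regions in the IDR list, which are also the 13 strongest, named by host gene, in the pooled list (circles), the replicate 1 list (squares) and the replicate 2 list (triangles). Pooled values fall from 102.9 at mom-1 to 57.2 at Y111B2A.12, mom-1 has the highest replicate 1 value at 74.95, and nhr-19 has no triangle because no replicate 2 region covered its summit.

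In the IDR list were 13 of the 1419 members (0.916%), where the background over all nuclear regions of signal 20 or more was 2.71%. All 13 had a signal of 50 or more, where 13 of 18 members (72.2%, 95% Wilson interval 49.1 to 87.5%) compare with 78.3% of all nuclear regions of that signal. The lowest signal in the IDR list was 56.4, and each of the 13 members above that value was in it. For the members, the IDR list was thus equivalent to a higher minimum of the same signal that chose them, and it is given here as a description.

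Both replicates' lists held a region over the summit for 164 members (11.6%), against a background of 17.2%. Replicate 1 alone held 725 (51.1%), replicate 2 alone 246 (17.3%) and neither 284 (20.01%). The backgrounds for these were 47.6%, 16.7% and 18.5%, so the split was much like that of all nuclear regions of signal 20 or more. The lists differ in length, with 14719 nuclear regions for replicate 1 and 4532 for replicate 2. In the 20 to 30 band 77 of 1276 members (6.03%, interval 4.86 to 7.48%) were in both, and the background there was 6.55%. In the 30 to 50 band 70 of 125 (56.0%, interval 47.2 to 64.4%) were, with a background of 62.3%. At 50 or more 17 of 18 were, with a background of 98.2%. Within a band the members' share was thus near the background, and the lower share over all bands goes with the larger part of the members that had low signal. The pooled list was made from the same 2 libraries, so these shares describe the lists and are no independent check.

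**Figure D2:**
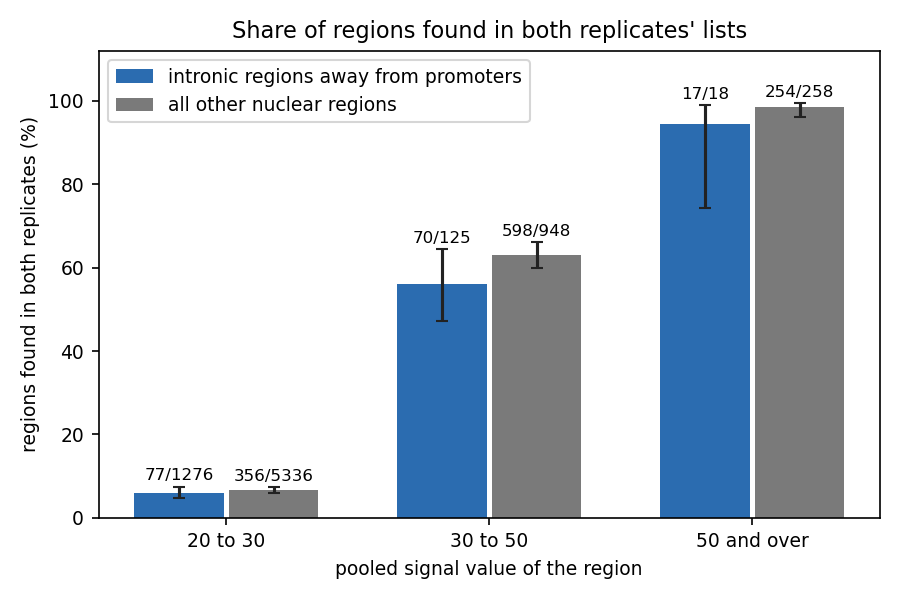
Share of regions (vertical axis, percent) whose summit lay in a region of both replicates' lists, by pooled signal, for the intronic regions away from promoters and for all other nuclear regions; bars carry 95% Wilson intervals and the counts. The share rises from 6.03% to 94.4% for the intronic regions and from 6.67% to 98.4% for the others, and the intervals overlap in each band.

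A q-value of 0.05 or less in both replicates was given to 7 members (0.493%), against a background of 1.87%. These 7 were all among the 18 members of signal 50 or more. In either replicate, such a q-value was given to 30 members (2.11%), against a background of 4.85%. Most members thus did not reach that q-value in any replicate's list. Across the 164 members in both lists, replicate 1 and replicate 2 signal had a Pearson correlation of 0.566 and a Spearman correlation of 0.405, given as a description because the points share their libraries and were selected on the pooled signal. The median signal in these was 14.02 in replicate 1 and 16.5 in replicate 2, on separate scales.

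The position rule left 19.2 Mb of the nuclear genome eligible, or 19.1% of it, so densities are given per eligible Mb with 95% Poisson intervals that cover counting error only. Over all introns there were 74.0 members and 8.55 members in both replicates per Mb. The members covered 1410 separate stretches, with 18 of them overlapping another member. Where isoforms number an intron differently, the lowest number was used, and the shortest intron at the summit was taken as the host intron.

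First introns held 331 members (23.3%), 4 of them in the IDR list, and 16.9% of the eligible bases. This was 102 per Mb (91.2 to 113), compared with 75.05 in intron 2, 74.2 in intron 3, 71.1 in intron 4 and 63.2 (57.9 to 68.9) in intron 5 or later. Members in both replicates had 15.7 per Mb (11.7 to 20.6) in first introns, 8.64 in intron 2, 8.95 in intron 3, 5.68 (3.11 to 9.54) in intron 4, the lowest, and 6.48 (4.85 to 8.47) in intron 5 or later. Among the 4678 weaker intronic regions, which pass the position rule but have a signal under 20, 18.7% were in first introns. With the numbering of each host's longest transcript instead, an alternative chosen after seeing the data, 192 of 1331 members (14.4%, interval 12.6 to 16.4%) were in a first intron, compared with 12.9% (11.9 to 13.9%) of weaker regions and 19.9% (14.3 to 26.9%) of members in both replicates. Many members counted in a first intron therefore lay in the first intron of a shorter isoform. The last intron of the transcript held 199 members.

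Long introns held more members per base. The median host intron was 1301 bp (interval 1209 to 1412), compared with 1041 bp for weaker intronic regions and 2571 bp for the 164 members in both replicates. Introns under 500 bp had 58.3 members per Mb (51.6 to 65.6), and introns of 10000 bp or more had 123 (102 to 147). For members in both replicates these densities were 4.04 (2.43 to 6.31) and 20.2 (12.3 to 31.2). Pooled signal and intron length had a Spearman correlation of 0.131 over 1413 members, and the median host intron was 1218 bp at a signal of 20 to 30, 2952 bp at 30 to 50 and 4012 bp at 50 or more. The summit lay a median of 253 bp from the nearest exon, and of 372 bp for members in both replicates and 209 bp for weaker regions. For 885 members (62.4%) the whole region, not only the summit, was free of exons. The differences in this paragraph and the one before were not tested, and neighbouring regions are not independent.

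**Figure D3:**
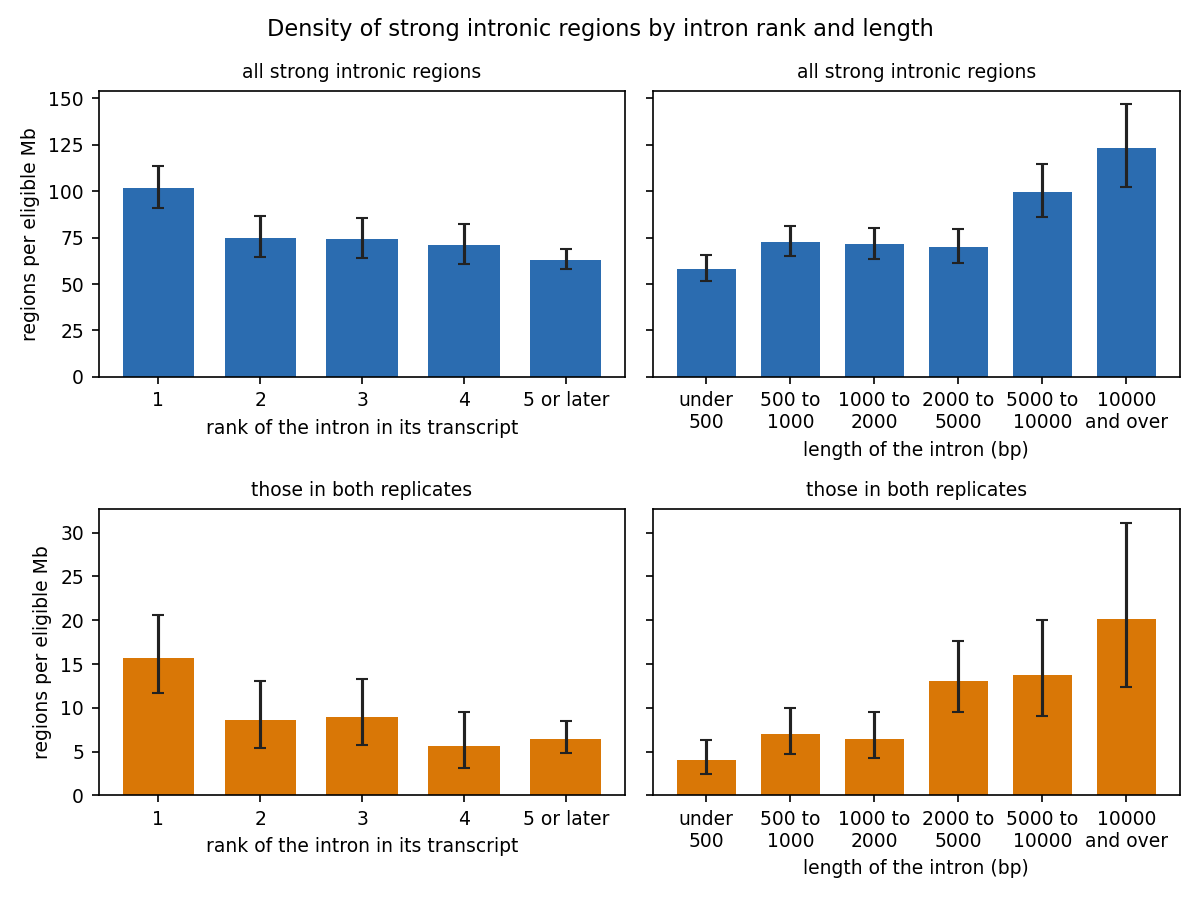
Regions per eligible Mb (vertical axes, different scale in each row) by rank of the intron (left) and its length in bp (right), for all 1419 strong intronic regions (top) and the 164 in both replicates (bottom), with 95% Poisson intervals. Bars are highest for first introns (102 and 15.7 per Mb) and for introns of 10000 bp or more (123 and 20.2 per Mb).

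An intron that also holds a whole nested protein-coding gene hosted 31 members (2.18%), compared with 4.27% of members in both replicates and 2.03% of weaker regions. Members per eligible Mb ranged over the chromosomes from 62.4 on IV to 84.5 on I, with 69.8 on X. Autosomes were split by length into a middle part and outer parts of equal size, without mapped arm boundaries. The middle part had 71.2 members per Mb and the outer parts 75.9. For members in both replicates the order differed, with 5.93 per Mb (3.57 to 9.26) on IV, 9.27 (6.46 to 12.9) on I and 10.4 (7.14 to 14.6) on X, the highest. They had 9.88 per Mb (6.99 to 13.6) in the middle part and 7.65 (6.18 to 9.37) in the outer parts. These intervals of members in both replicates overlap, and the differences in this paragraph were not tested.

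The members had 1063 host genes, of which 841 had 1 member, 152 had 2 and 70 had 3 or more. Weaker regions were also found in 594 of these hosts (55.9%). The cadherin gene hmr-1, whose product joins epidermal cells in embryonic morphogenesis, had the most, 9 members over 58.9 kb, of which 3 were in both replicates and the strongest had a signal of 34.2. The gene gcn-1, whose yeast counterpart activates a translation-control kinase, had 8, none in both replicates, with signals up to 36.3. The spectraplakin gene vab-10, which links the cytoskeleton to epidermal attachments, had 7, with 2 in both and signals up to 35.3. None of the members in these 3 genes reached the IDR list.

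There were 7 hosts with 6 members each, and the 5 of them with the highest summed signal are described here and drawn with the first 3. They were ppfr-1, a regulatory subunit of protein phosphatase 4, pqn-41, the forkhead factor fkh-7, aakg-1, a gamma subunit of the AMP-activated kinase, and the polarity kinase par-1. The others of the 7 were the kinase gene lit-1, which acts in Wnt signalling, and hlh-30, related to human TFEB, neither with a member in both replicates. In ppfr-1 the members lay in 2 introns, with signals from 23.8 to 49.8. In fkh-7 the strongest, with 46.6, and another of 22.5 had summits at 9.18 and 9.38 kb from the gene's 5' end, and their regions overlapped. Long genes have more intronic bases, and the counts per gene here are not corrected for length.

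**Figure D4:**
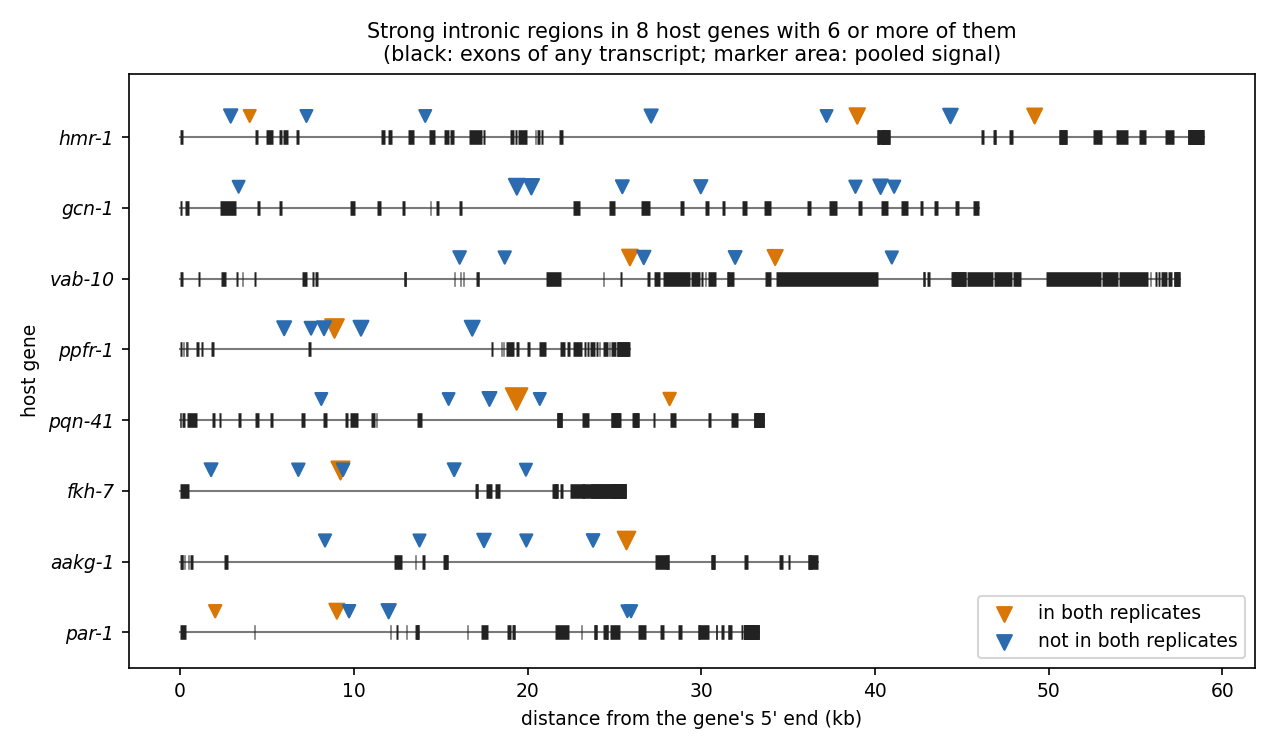
Positions of the strong intronic regions (triangles, area in proportion to pooled signal, orange for those in both replicates) along 8 host genes with 6 or more of them, as distance in kb from the gene's 5' end, with exons of any transcript in black. Of the 7 hosts with 6, the 5 of highest summed signal are drawn, without lit-1 and hlh-30. The 9 regions of hmr-1 are spread from 2.92 to 49.2 kb, and the pqn-41 region of signal 66.9 lies at 19.4 kb.

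Host genes were sorted into 10 classes by their symbols, with the hosts of weaker intronic regions as the comparison. Nuclear hormone receptor genes were 21 of the 1063 hosts (1.98%) and 1.46% of weaker hosts. Hosts with a symbol of the homeobox class were 11 (1.03% and 0.959%). By symbol it was led by lim-8 with a signal of 30.5 and by ttx-1, which specifies a thermosensory neuron, with 29.5. RefSeq calls the lim-8 product a PDZ domain-containing protein, so its place in this class rests on its symbol alone. The symbols also left out hosts such as zfh-2 and Y56A3A.7, which RefSeq names as homeobox genes. Y56A3A.7 had a stronger member than lim-8, so the count and order hold for symbols only. Other transcription factor genes were 26 (2.45% and 1.99%), and after dmd-6 and fkh-7 their strongest was the developmental timing gene lin-14 with 42.6, seen in replicate 1 alone. The shares of these classes among the hosts of members and of weaker regions were within 1 percentage point of each other.

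Kinase, phosphatase and signalling genes were 66 hosts (6.21% and 4.16%), among them mom-1 and the casein kinase gene kin-20 at 46.3. The kin-20 member had 15.6 in replicate 1 and 38.3 in replicate 2, at ranks 3184 and 113. Channel, receptor and synapse genes were 64 hosts (6.02% and 5.29%), led by the axonal kinesin gene unc-104 at 34.4, by ric-7 at 31.8 and by the neuropeptide receptor gene pdfr-1 at 31.1. Adhesion, guidance and matrix genes were 28 hosts (2.63% and 2.49%), where rig-3 followed vab-10 and hmr-1 with 33.9. Muscle and cytoskeleton genes were 27 (2.54% and 1.95%), led by the tropomodulin gene unc-94 at 50.9, frm-1 at 37.5 and the paramyosin gene unc-15 at 31.0. Any of the 10 classes covered 27.2% of member hosts and 22.6% of weaker hosts.

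Metabolism and transport genes were 34 hosts (3.20% and 2.91%), with the glucuronosyltransferase gene ugt-50 at 41.8, hmit-1.2 at 37.7 and the acyl-CoA synthetase gene acs-13 at 35.3. RNA-binding and splicing genes were 9 (0.847% and 0.746%), with asd-2 at 34.4 after larp-1, and hrpu-2 at 29.6. Collagen and cuticle genes were 5 (0.470% and 0.959%), the 1 class in which the share of hosts was the lower for members. Counted by regions instead of hosts, the members' share was the lower in 4 classes, with 0.564% and 1.00% for collagen and cuticle, 5.50% and 5.90% for channels, receptors and synapses, 0.916% and 1.05% for RNA binding and 2.82% and 3.08% for metabolism and transport. The strongest hosts of the collagen and cuticle class, dpy-21 at 28.96 and dpy-27 at 27.6, carry its symbol but act in X-chromosome dosage compensation. In the same class col-99, a collagen gene, had 21.3. The differences between classes were not tested, and the symbols leave most hosts unsorted.

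Within 100 bp of the summit the members had a median GC content of 35.8%, compared with 35.6% in flanks from 500 to 700 bp away. In members in both replicates it was 38.3%, with 36.1% in the flanks, and in the 13 members of the IDR list 43.8% with 32.8%. Taken within each region, the median of GC content at the summit less that in its flanks was -0.25 percentage points in all members, 2.36 in members in both replicates, 6.22 in the IDR members and -1.49 in weaker regions. In weaker intronic regions it was 33.8%, below their flanks at 35.3%. The zfp-1 window had the widest gap of the 13, with 52.2% GC and 27.9% in its flanks. Pooled signal and GC content had a Spearman correlation of 0.169 over the 1419 members. By signal, the within-region median was -0.746 percentage points in members of 20 to 30, 3.23 at 30 to 50 and 6.22 at 50 or more. Other nuclear regions of the same bands had 0.995, 4.48 and 7.96, so the rise in GC content with signal was not limited to introns. GC content can change how well DNA is amplified and sequenced, and its part in the signal was not tested.

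The hexamer GAGAGA, searched on both strands as GAGAGA or TCTCTC, lay within 100 bp of the summit in 215 members (15.2%, interval 13.4 to 17.1%) and in 10.5% of their flank windows. Among members it was in 12.9% at a signal of 20 to 30, 34.4% (26.6 to 43.1%) at 30 to 50 and 8 of 18 at 50 or more, while weaker intronic regions had it in 9.17%. Members in both replicates had it in 43 of 164 windows (26.2%, interval 20.1 to 33.4%), with 10.1% in their flanks. It lay on the host gene's strand in 14 of these 43, on the other strand in 24 and on both in 5. The printed windows of nhr-46, nhr-19 and zfp-1 belong to the 5 of the 13 IDR windows with the hexamer. Among other nuclear regions it was in 17.1%, 31.4% and 34.5% of the same 3 signal bands, and 13.3% of all nuclear regions held it, so the hexamer was not limited to introns.

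Of the 2080 hexamers, strands joined, GAGAGA was also the one with the widest gap between members in both replicates and their flanks, and GAGACA followed with 20.7% and 5.79%. These were picked after a scan of all hexamers, so the gap is a description. ACACAC overlaps with other dinucleotide repeats and was in 19.5% of windows of members in both replicates and 11.3% of their flanks. The nuclear receptor hexamer AGGTCA was in 70 members (4.93%, interval 3.92 to 6.19%), in 5.50% of their flanks, in 4.62% of weaker regions and in none of the 13 IDR windows. These letters were thus about as frequent at summits as beside them.

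**Figure D5:**
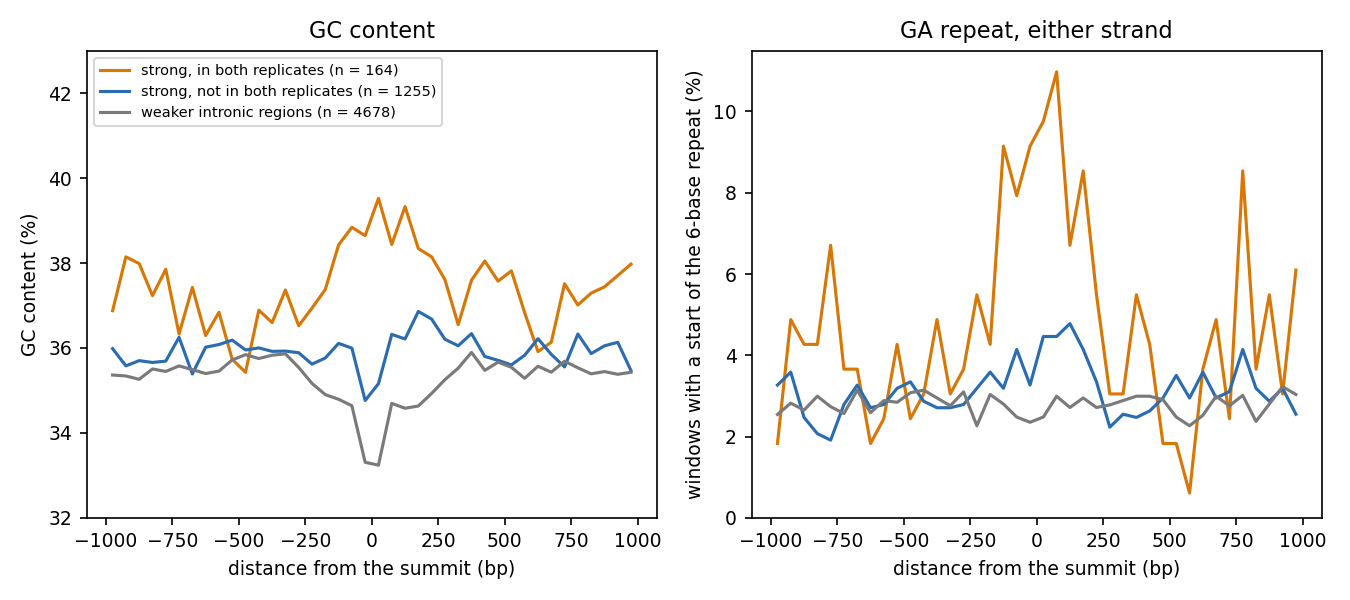
GC content (left, percent, axis from 32) and share of 50 bp bins in which the hexamer GAGAGA starts on either strand (right, percent) by distance from the summit, for strong intronic regions in both replicates (164), those not in both (1255) and weaker intronic regions (4678). In the first set the hexamer starts in 9.76% of bins just past the summit and GC content is 39.5% there, while weaker regions have 2.48% and 33.2%.

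An A box followed by a B box, as in the srt-52 window, stood in 6 members (0.423%), where the share among all nuclear regions without a tRNA or snoRNA gene within 500 bp was 0.218%. At srt-52 the boxes and the bases between them covered chrV:53483-53536. The other 5 members with these letters had signals from 21.5 to 29.01, among them elt-6 and dpy-21. A tRNA pseudogene of the RefSeq annotation lay within 500 bp of 7 members (0.493%, interval 0.239 to 1.01%), the nearest at 28 bp in unc-104. The share was 0.257% (0.147 to 0.448%) in weaker intronic regions and 0.257% (0.206 to 0.321%) in all nuclear regions, so the intervals overlap. The rule removed annotated tRNA genes and not pseudogenes.

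Short RNA genes other than those the rule removed were also counted within 500 bp. A miRNA gene lay that near in 10 members (0.705%, interval 0.383 to 1.29%), compared with 0.171% (0.0867 to 0.337%) of weaker intronic regions and 0.566% of other nuclear regions of signal 20 or more. The strongest, chosen after its values were seen, was in K01F9.2, 176 bp from cel-mir-90, with a pooled signal of 41.8 and 15.04 and 27.5 in replicates 1 and 2. In ppfr-1 separate members lay 299 bp from cel-mir-2 and 360 bp from cel-mir-71, a miRNA known for its effect on lifespan, with signals of 32.08 and 32.03. Of the members in both replicates, 12.8% lay near a gene annotated as ncRNA, compared with 6.77% of all members, 6.26% of weaker regions, 13.7% of other nuclear regions of signal 20 or more and 9.21% of all nuclear regions.

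A window with a further match in the genome, at 90% identity or more over 150 bp, was found for 20 members (1.41%) and 2.61% of weaker regions. Matches of a repeat to its own place, shifted along it, were not removed. A further match is therefore not always a copy elsewhere. The 3 in both replicates were in pad-1, emc-1 and unc-104. A tandem repeat of 30 bp or more was in 14 members (0.987%), in 6 members in both replicates (3.66%) and in 0.257% of weaker regions. How reads that match several copies were placed is not given in the sources used here. Their part in these signals was not tested. The pooled list had no region within 20000 bp of nhr-28, the tagged gene, and 17 that near unc-119, none of them a member. How much genomic DNA the transgene carries was not examined.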

How the data were processed

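The files used were the authors' region lists for each replicate and for both replicates together, and their IDR list, as deposited. Per the labels, ChIP-seq libraries came from 2 biological replicates with fragments of 150 to 350 bp, and a control experiment is named there. The name of the aligner or the peak caller, or the IDR setting, is not given in the sources used here. Read totals are unknown. The authors deposited a signal value, a score and a −log10 q-value for each region. The ce11 lists were used.

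Summits were placed on Ensembl release 115 genes (WBcel235, the same build). A region was called found in another list when that list held a region over its summit. GC content and motifs were read within 100 bp of the summit and in flanks at 500 to 700 bp. Shares carry 95% Wilson intervals. The functions were tested on simulated data (Python 3.11.15, pandas 2.3.3, scipy 1.17.1), and copies in the genome were searched with blastn 2.17.0. With 1 group, no test between conditions was possible. The named hosts were the IDR members, the 20 strongest, the 8 hosts with most members (ties by summed signal), the 3 strongest per class and those at the threshold. The members and lists were chosen with earlier results of these data known. An item that this rule names is not reported here.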

Additional observations from a re-analysis of the deposited data

How the results depend on the processing

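A higher signal minimum changed most values. At 25 there were 438 members, with a median host intron of 1804 bp, a median GC content of 37.8% and GAGAGA in 23.1%. At 30 there were 143, of which 87 in both replicates, with 3108 bp, 40.8% and 35.7%. With 5' ends more than 2000 bp away there were 769 members, 86 in both replicates and a median intron of 1450 bp. With the whole region free of exons there were 885, with 2683 bp and GAGAGA in 18.5%. Requiring a replicate q-value of 0.05 or less left 7 in both replicates. Within 50 bp of the summit the median GC content was 34.7% and GAGAGA was in 7.82%, the latter in a window of fewer bases, which also lowered the share of 8 other motifs tried. For a single replicate's list (without replicate 1 or without replicate 2) the signal minimum was not used. Up to 7961 nuclear regions of highest signal were taken instead, and the position rule kept 736 to 1398 of them. The members of the pooled list found in the list that was left numbered 410 to 889. Of the regions kept from a single list, 12 to 14 were in the IDR list. Their median intron was 1275 to 1296 bp, the median GC content 35.3 to 36.3% and the GAGAGA share 13.7 to 15.6%. The replicate 2 list holds 4532 nuclear regions, fewer than the 7961 ranked in the pooled list, which lowers its count. The tRNA and snoRNA distance, the 500 bp minimum to a 5' end and the overlap rules kept each count within 1.5 times its value, with 200 in both replicates at any overlap. No paired analysis was possible because both replicates belong to 1 group.

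Without read totals, the depth behind a signal value is unknown. The lowest signal listed was 10.4 in replicate 1 and 13.8 in replicate 2, and nothing below these values can be seen. No untagged strain was analysed here, so signal at these introns that does not depend on NHR-28 cannot be told apart from signal that does. Intervals cover counting error only, and host genes were assigned by position, with no expression measured.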
